A study of Mus musculus with 4 samples.

Results

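Type I interferon-stimulated genes are the genes that a cell switches on when interferon alpha or beta binds its surface receptor. A list of 40 such genes, taken by symbol, was followed here, and all 40 were among the 22620 genes in the deposited matrices. The libraries hold single cells enriched on CD45 beads from MC38 tumours, a mouse colon carcinoma line grown in mice. The groups are WT mice and knockout mice (KO), as the labels name them. All hosts carried MC38 tumours, and each group has 2 libraries, WT 1, WT 2, KO 1 and KO 2. Strain, age, sex and animals per library are not stated in the labels used here. The p-values therefore measure the spread between libraries.

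Binding of interferon alpha or beta activates the kinases JAK1 and TYK2, and STAT2 then joins IRF9 in a complex that binds a DNA element with the letters GAAANNGAAA. Interferon gamma uses another receptor and acts through the letters TTCNNNGAA, and some genes respond to both. The products of the 40 genes sense foreign RNA and DNA, block viral entry and replication, and conjugate or remove the ubiquitin-like protein ISG15. Macrophages are both a source of interferons and a cell type that responds to them.

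The letters GAAANNGAAA, searched on both strands (TTTCNNTTTC on the other) in the 250 bases before the start site, were in 12 of the 30 members with a RefSeq promoter (GRCm38.p6). That is 40% of these members, against 3.46% of all 27025 genes with a promoter. Of the 14 promoter-matched members that were called higher in KO macrophages (below), 5 held the letters, and of the 16 that were not called, 7 did. The interferon gamma letters TTCNNNGAA, which are their own reverse complement, were in 5 of the 30 (16.7%) and in 8.13% of all genes. The promoters of 6 members are shown because they carry the letters and belong to members on either side of the test's threshold. Oas1a, Ifitm2 and Bst2 were called higher in KO macrophages, and Isg15, Rsad2 and Ifit1 were not, which does not show that the changes of these genes differ. Each runs 5′ to 3′ on the gene's own strand and ends before the annotated transcript. Capitals mark, and the lines count, matches of GAAANNGAAA or TTTCNNTTTC only. Oas1a and Bst2 also have 1 match each of TTCNNNGAA, which is not marked.
Isg15, chr4:156200819-156200968, minus strand, with 3 overlapping matches: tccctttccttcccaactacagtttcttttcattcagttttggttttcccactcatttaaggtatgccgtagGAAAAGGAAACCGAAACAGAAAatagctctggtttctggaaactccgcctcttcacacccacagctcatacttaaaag
Rsad2, chr12:26456453-26456602, minus strand, with 1 match: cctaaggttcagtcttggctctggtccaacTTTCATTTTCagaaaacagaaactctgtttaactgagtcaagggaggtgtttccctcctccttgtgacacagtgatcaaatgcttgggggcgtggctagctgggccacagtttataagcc
Ifit1, chr19:34640739-34640870, plus strand, with 2 matches: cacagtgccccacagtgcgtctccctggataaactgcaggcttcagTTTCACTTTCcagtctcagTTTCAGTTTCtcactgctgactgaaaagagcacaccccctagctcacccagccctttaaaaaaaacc
Oas1a, chr5:120907526-120907675, minus strand, with 2 overlapping matches: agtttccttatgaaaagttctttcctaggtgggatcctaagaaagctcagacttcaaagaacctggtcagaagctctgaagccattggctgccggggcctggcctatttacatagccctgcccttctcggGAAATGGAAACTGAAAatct
Bst2, chr8:71537473-71537622, minus strand, with 2 overlapping matches: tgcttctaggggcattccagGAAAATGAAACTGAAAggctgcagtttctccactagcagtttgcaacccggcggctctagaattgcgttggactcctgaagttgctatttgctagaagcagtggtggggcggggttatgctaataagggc
Ifitm2, chr7:140955988-140956111, minus strand, with 1 match: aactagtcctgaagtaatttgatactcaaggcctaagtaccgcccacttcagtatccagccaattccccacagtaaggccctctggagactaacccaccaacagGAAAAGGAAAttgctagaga

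The 4 libraries held 9239 to 18324 barcodes and 94213071 to 130466357 UMIs, which are counts of distinct RNA molecules. After barcodes under 1000 UMIs or over 20% mitochondrial UMIs were left out, 8083, 8478, 14999 and 8369 cells remained in WT 1, WT 2, KO 1 and KO 2. Their median depth was 10585, 12400, 7166 and 10175 UMIs, so KO 1 has the most and the shallowest cells. Each library shared 86 to 140 barcodes with another. Cells were assigned to types by marker genes, none of which is a member, and UMIs were summed per type and library. The CD45 gene Ptprc stood at 376 to 457 CPM (UMIs per 1000000 UMIs of the summed cells) in macrophages and at 16.4 to 48.9 CPM in collagen-positive cells, which are not CD45-positive by this measure. In such sums, fewer high cells and less RNA per cell cannot be told apart.

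Macrophages were the largest type, with 5669, 6201, 10365 and 5487 cells in the order above. Here the question was whether the interferon-stimulated genes stood at another level in KO than in WT tumours. Their summed level was 2578 and 2818 CPM in the WT libraries and 4835 and 4090 CPM in the KO libraries, or 2698 ± 170 against 4462 ± 420 CPM (SD, n = 2), and the groups did not overlap. Of the 40 members, all tested, 19 rose in KO and 0 fell, by edgeR's quasi-likelihood test at an adjusted p of 0.05. Over all 12647 genes tested in macrophages, 6.06% were called higher and 4.67% lower in KO. The median log2 change of the members was 0.54 and that of all genes was -0.013. At an unadjusted p under 0.05, 29 members were higher and 0 lower, and DESeq2 called 28 higher and 0 lower. With library sizes taken as total counts 16 members were higher and 0 lower, while all genes moved from 767 higher and 590 lower to 567 and 1208, with a median log2 change of -0.14. Most calls lay in the membrane restriction factors, the nucleic acid sensors and the group of Parp9 and Dtx3l, and the IFIT family gave none.

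**Figure D1:**
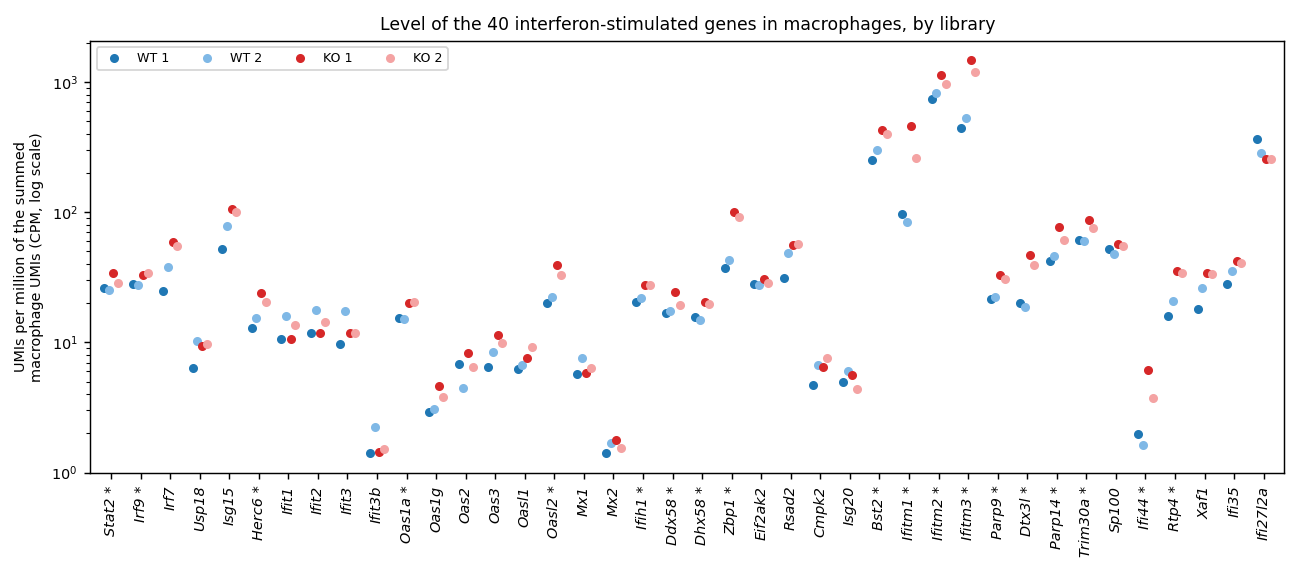
Counts per 1000000 UMIs in the macrophage sums (CPM, log axis) for each of the 40 members, with 1 point per library, blue for WT and red for KO; an asterisk marks the 19 members called higher in KO. Ifitm3 and Zbp1 show KO points well above both WT points, whereas the 4 IFIT genes show WT 2 as the highest library.

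All 4 membrane restriction factors rose in KO macrophages, with a median log2 change of 1.13. Ifitm3, at chr7:141009586-141010770, makes a membrane protein that blocks the fusion of viruses in endosomes. It stood at 448 and 531 CPM in WT and at 1471 and 1188 CPM in KO. Both KO libraries lay above both WT libraries, a log2 change of 1.56 (SE 0.15, adjusted p = 0.00224). Ifitm1, its relative at the cell surface, had 97.3 and 85.0 CPM in WT and 457 and 263 CPM in KO. Its log2 change of 2.11 (SE 0.29, adjusted p = 0.025) was the largest of the 40, and its KO libraries differed most from each other. Ifitm2, at 743 and 831 against 1129 and 975 CPM, rose by 0.54 on the log2 scale (adjusted p = 0.0346). The Ifitm genes lie together on chromosome 7 and resemble each other, so reads shared between copies could blur these values. Bst2, or tetherin, holds budding virus at the membrane, and its gene lies at chr8:71534255-71537456. It had 252 and 303 CPM in WT and 431 and 397 CPM in KO, a log2 change of 0.70 (SE 0.13, adjusted p = 0.0167).

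Among the nucleic acid sensors and the kinase Eif2ak2, 4 of 5 rose, with a median log2 change of 0.50. Zbp1, at chr2:173206612-173218923, senses Z-form nucleic acids and can trigger cell death. Its levels of 37.1 and 43.0 CPM in WT and 101 and 91.8 CPM in KO gave a log2 change of 1.39 (SE 0.11, adjusted p = 0.00109). Dhx58, which regulates the RIG-I-like receptors, had 15.7 and 14.9 CPM in WT and 20.3 and 19.7 CPM in KO, a log2 change of 0.52 (adjusted p = 0.0136). Ifih1 and Ddx58, the RNA sensors MDA5 and RIG-I, rose by 0.50 and 0.48 on the log2 scale. Eif2ak2, the kinase PKR, stood at 28.0 and 27.4 against 30.6 and 28.5 CPM and did not pass the test.

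In the group of ADP-ribosylation, ubiquitin and nuclear body genes 4 of 5 rose, with a median log2 change of 0.66. Dtx3l and Parp9 encode partners of 1 ubiquitin ligase and ADP-ribosylation complex, and their genes overlap at chr16:35926511-35939151 and chr16:35938470-35972605 on opposite strands. Dtx3l stood at 19.9 and 18.6 CPM in WT and at 46.7 and 39.1 CPM in KO, a log2 change of 1.28 (SE 0.11, adjusted p = 0.00113). Parp9 had 21.7 and 22.2 CPM in WT and 32.8 and 30.9 CPM in KO, a log2 change of 0.66 (adjusted p = 0.00656). Parp14, at 42.3 and 46.0 against 76.6 and 61.2 CPM, rose by 0.77 on the log2 scale (adjusted p = 0.0125). Trim30a, an ubiquitin ligase family member, had 61.4 and 59.7 against 87.0 and 75.5 CPM, a log2 change of 0.55 (adjusted p = 0.0144). For all 4 genes both KO libraries lay above both WT libraries, which adds no support, since they were picked as called by the test. Sp100, a nuclear body protein, changed by 0.29 on the log2 scale with an adjusted p of 0.0734.

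Of the OAS family, enzymes that make the activator of RNase L or resemble such enzymes, 2 of 6 rose. Oasl2 stood at 20.2 and 22.5 CPM in WT and at 39.4 and 33.2 CPM in KO, a log2 change of 0.89 (adjusted p = 0.00605). Oas1a had 15.5 and 15.1 against 20.2 and 20.5 CPM, a log2 change of 0.54 (adjusted p = 0.0125), and it shares much sequence with Oas1g. Oas1g, Oas3 and Oasl1 had adjusted p-values of 0.0505, 0.051 and 0.0599, just over the threshold. Herc6, the mouse ISG15 ligase, rose from 12.9 and 15.4 to 23.8 and 20.4 CPM, a log2 change of 0.77 (adjusted p = 0.0142). Isg15 itself, at chr4:156199424-156200818, stood at 51.8 and 78.7 against 106 and 101 CPM. Both KO libraries were higher, and the log2 change of 0.79 did not pass the test (SE 0.23, adjusted p = 0.102). Among the other interferon-induced genes Rtp4, a chaperone of receptors, rose from 15.9 and 20.9 to 35.6 and 33.9 CPM (log2 change 1.04, adjusted p = 0.0107). Ifi44, from which few UMIs were read, rose from 1.98 and 1.63 to 6.12 and 3.76 CPM (log2 change 1.58, adjusted p = 0.0129).

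The signalling genes moved least among those that passed. Stat2 and Irf9, which are parts of the DNA-binding complex, rose by 0.41 and 0.39 on the log2 scale. Irf7, the factor that amplifies interferon production, stood at 24.9 and 38.1 against 58.7 and 55.5 CPM, a log2 change of 0.98 with an adjusted p of 0.0649. Usp18, which removes ISG15 and dampens the receptor, had 6.34, 10.3, 9.41 and 9.79 CPM in the 4 libraries.

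The IFIT family, RNA-binding proteins that block translation of viral RNA, gave no call. Ifit1, at chr19:34640871-34650009, stood at 10.5 and 15.9 CPM in WT and at 10.7 and 13.5 CPM in KO. The highest and the lowest library were both WT, and the log2 change was -0.01 (SE 0.25, adjusted p = 0.986). The edgeR test called 0 of the 4 IFIT genes, and their median log2 change was -0.07. Ifit3 and Ifit3b are near-identical copies, so their separate values of -0.08 and -0.20 are uncertain. Mx1, a GTPase that traps viral capsids, had 5.67 and 7.58 against 5.79 and 6.34 CPM. Rsad2, or viperin, had 31.3 and 48.6 against 56.1 and 56.7 CPM, a log2 change of 0.61 with an adjusted p of 0.184. Ifi27l2a, a small mitochondrial protein gene, went the other way without passing, at 367 and 285 against 255 and 255 CPM.

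Some other genes of the pathway were called higher in macrophages as well, against 6.06% of all genes tested there. The receptor genes Ifnar1 and Ifnar2 had log2 changes of 0.17 and 0.20 that did not pass. Of 20 type I and III interferon genes in the files 17 had 0 UMIs in the macrophages of all 4 libraries, among them all 14 interferon alpha genes, which allows up to 0.0297 to 0.0454 CPM per library. Ifnb1, the interferon beta gene, had 19 and 27 UMIs in WT and 10 and 12 in KO, a log2 change of -1.16 that did not pass. Of the genes that induce interferon, 4 of 16 rose (Tlr7, Tlr8, Tbk1 and Irf8, by 0.43 to 0.68 on the log2 scale). Of the negative regulators, 3 of 9 tested rose, and Socs1, an inhibitor of the JAK kinases, went from 18.6 and 19.6 to 68.5 and 57.9 CPM (log2 change 1.85).

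Genes better known for their response to interferon gamma had a larger median change. Of 23 such genes, 20 rose and 0 fell in KO macrophages, with a median log2 change of 1.90 and a summed level of 663 and 884 CPM in WT against 2786 and 2276 CPM in KO. Iigp1, a GTPase that attacks parasite vacuoles, had 37.0 and 42.2 against 256 and 204 CPM, and Gbp2, a guanylate-binding protein, had 65.3 and 87.9 against 338 and 266 CPM. The list shares Socs1 with the negative regulators and no gene with the 40. Ifng itself, the interferon gamma gene, stood at 91.0 and 152 CPM in the T cell sums of WT and at 622 and 796 CPM in those of KO, a log2 change of 2.61 (adjusted p = 0.00261). T cells were 2.94% and 4.46% of kept cells in WT and 12.3% and 11.1% in KO. CD8 T cells, a part of them, were 0.384% and 1.2% of kept cells in WT and 7.15% and 5.39% in KO. Thus the make-up of the T cell sums differed too, and its part in the Ifng value was not tested. In the macrophage sums the 7 T cell markers summed to 3.43 and 8.64 CPM in WT and to 38.7 and 22.6 CPM in KO, and 4 of the 7 were called higher. The same markers stood at 4633 to 5448 CPM in T cells. The part of RNA from T cells in the macrophage values was not tested.

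The make-up of the macrophages differed between the groups, so they were split by pairs of marker genes. Cells with Fcrls and Cx3cr1 were 15.7% and 14.9% of macrophages in WT and 1.79% and 1.60% in KO, and cells with C3 and Vcam1 were 1.08% and 1.64% in WT and 16.1% and 8.51% in KO. The other subsets carried Arg1 and Inhba, Mmp12 and Mmp13, Chil3 and Ear2, cell cycle genes, more than 1 pair, or no pair, and a small one carried Lyve1 and Cd163. Many cells lie near the limits: 374 cells of KO 1 had Mmp12 and Mmp13 counts less than 25% under the limit for that pair, and 206 had counts less than 25% over it. With the subset levels weighted by the WT shares or by the KO shares, the summed member level was 1.59 or 1.57 times as high in KO, against 1.65 times as deposited. With equal weight for every subset it was 1.33 times as high. A limma fit with equal weights used only the 8 subsets with at least 20 cells in every library. It thus left out the Lyve1 and Cd163 cells, and it called 9 members higher and 1, Cmpk2, lower.

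**Figure D2:**
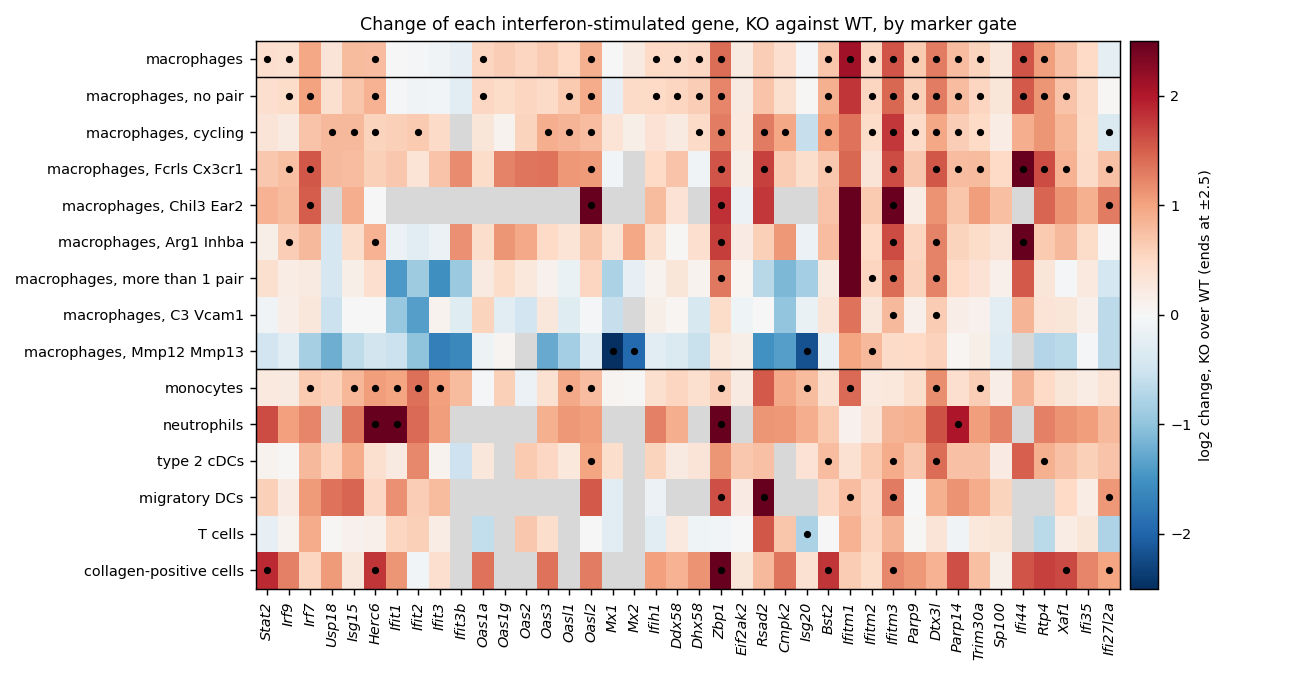
Log2 change (KO over WT, colour, ending at ±2.5) of each member in macrophages, in 8 macrophage subsets and in 6 other cell types; dots mark members past an adjusted p of 0.05 and grey marks members not tested there. Red prevails in most rows. The Mmp12 and Mmp13 row is the one with mostly blue cells, 28 of the 38 members tested there being negative. The share of all genes that are negative there is not given.

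The KO change differed between subsets for 14 of the 40 members by edgeR's F test of the subset by genotype interaction over 8 subsets, with library as a block. Of all 11436 genes tested in this model, 9.03% passed. The 14 were Bst2, Ifitm3, Ifi27l2a, Xaf1, Herc6, Usp18, Zbp1, Ifitm2, Irf9, Oas3, Isg20, Dhx58, Dtx3l and Sp100. Without WT 1 there were 21, without WT 2 there were 10, without KO 1 there were 2 and without KO 2 there were 5. Here and below, leaving out a library leaves 1 in its group, which is assumed to vary like those of the other group. Bst2 had the largest F of the 40, 13.5 (adjusted p = 9.6e-05). Its log2 change was 1.03 in cycling cells, 0.88 in cells with no pair and 0.67 in Fcrls and Cx3cr1 cells, all past the test, and 0.32 in C3 and Vcam1 cells and -0.16 in Mmp12 and Mmp13 cells, neither of which passed. Zbp1 was likewise lowest in the last of these, at 1.83 in Chil3 and Ear2 cells, 1.73 in Arg1 and Inhba cells, 0.46 in C3 and Vcam1 cells and 0.26 in Mmp12 and Mmp13 cells. Ifi27l2a changed sign among calls: it rose by 1.29 and 0.72 in Chil3 and Ear2 cells and in Fcrls and Cx3cr1 cells, and fell by 0.35 in cycling cells.

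The Mmp12 and Mmp13 cells, with 283, 298, 258 and 224 cells, had 28 of 38 tested members at a negative log2 change. The share of all genes at a negative change is not given, for this gate or any other, so this count has no baseline. The edgeR test called 1 of 38 members higher and 3 lower, with a median log2 change of -0.47, against 2.29% and 2.1% of all genes. Mx1, at chr16:97447035-97462907, stood at 11.3 and 26.6 CPM in WT and at 2.08 and 2.35 CPM in KO, from 36, 98, 6 and 8 UMIs. Both KO libraries lay below both WT libraries, a log2 change of -3.13 (SE 0.52, adjusted p = 0.015). Its neighbour Mx2 had 4.38 and 7.61 against 1.73 and 1.47 CPM, a log2 change of -1.95 (adjusted p = 0.0489). Isg20, an RNA exonuclease, had 11.3 and 20.6 against 1.73 and 5.29 CPM, a log2 change of -2.18 (adjusted p = 0.032). Ifitm2 was the 1 member that rose, from 335 and 407 to 721 and 618 CPM (log2 change 0.81, adjusted p = 0.00416). DESeq2 called 1 member higher and 0 lower.

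The 2 WT libraries of these cells differed from each other. Ifit3 had 12.5 CPM in WT 1, 86.4 in WT 2, 10.0 in KO 1 and 21.2 in KO 2, and Rsad2 had 131, 341, 60.3 and 109 CPM. WT 2 was thus the highest library of both genes. Without WT 1 the members called lower rose to 10, without WT 2 they were 1, without KO 1 they were 0 and without KO 2 they were 2, and the higher ones were 4 without WT 2 and 0 without KO 1. Without WT 2 the median change of the members was 0.04. The interferon gamma genes went the other way in the same sums, with 13 of 22 tested called higher, 0 lower and a median log2 change of 2.01. Gbp2 stood at 33.1 and 30.7 CPM in WT and at 194 and 180 CPM in KO. The gate is no equal group in both genotypes: Mmp12 itself was at 12233 and 9247 CPM in WT and at 7881 and 8163 CPM in KO, and the macrophage marker C1qa at 987 and 1250 against 2407 and 2271 CPM. The part of these differences in the member values was not tested.

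Cells with C3 and Vcam1, of which WT 1 and WT 2 had 61 and 102 and KO 1 and KO 2 had 1664 and 467, held the members at a high level in both groups. The summed member level was 5492 and 4247 CPM in WT and 5245 and 4969 CPM in KO, and the groups overlapped. The test called 2 of 39 members higher and 0 lower, with a median of 0.04, against 2.36% and 0.888% of all genes. These were Ifitm3, from 797 and 654 to 1293 and 992 CPM, and Dtx3l, from 56.8 and 53.5 to 76.6 and 79.4 CPM. At an unadjusted p under 0.05, 2 members were lower, and DESeq2 called 1. Without WT 1 there were 5 higher calls, without WT 2 there was 1 and without KO 1 there were 0; lower calls were 2 without WT 2, 1 without KO 1 and 3 without KO 2.

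Fcrls and Cx3cr1 cells, with 888 and 922 cells in WT and 186 and 88 in KO, also showed a rise. Of 39 members tested 14 rose and 0 fell, with a median of 0.75, against 1.73% of all genes called higher and 0.489% lower. Rsad2 stood at 10.8 and 6.43 CPM in WT and at 29.9 and 23.0 CPM in KO, a log2 change of 1.71 (adjusted p = 0.00209). Irf7 rose from 17.7 and 20.1 to 41.2 and 68.2 CPM, a log2 change of 1.55 (adjusted p = 0.000669). Without KO 1 the calls fell to 9 and without KO 2 to 6.

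Cells with Arg1 and Inhba gave 6 of 40 members higher and 0 lower (median 0.52, against 2.99% of all genes called higher and 1.83% lower), which were Ifi44, Zbp1, Ifitm3, Dtx3l, Herc6 and Irf9. Zbp1 there went from 22.4 and 28.2 to 86.9 and 76.8 CPM, a log2 change of 1.73. Without either KO library 3 members were called, and without WT 2 there were 18. Chil3 and Ear2 cells, 125 and 59 in WT and 37 and 34 in KO, gave 5 of 24 higher and 0 lower (median 0.89, against 1.32% and 0.422% of all genes). Ifitm3 went from 284 and 365 to 2110 and 1412 CPM, a log2 change of 2.47 (SE 0.23, adjusted p = 0.000189). Without KO 1 there were 10 calls. This gate was not alike in both groups: the 7 monocyte markers summed to 1264 and 1147 CPM in WT and to 1830 and 1523 CPM in KO, against 6889 to 7744 CPM in monocytes. Of the 6 tested, Hp, Ly6c2 and Vcan were called higher (6.91-, 4.35- and 2.61-fold) and Ccr2 lower. Inhba, a marker of another subset, went from 34.2 and 18.8 to 710.2 and 476 CPM. The part of these differences in the member values was not tested. Cells with more than 1 pair gave 4 of 40 higher and 0 lower, against 3.49% and 1.95% of all genes, and 17 without WT 2 and 8 without KO 2, with 6 lower without WT 1, 1 without WT 2 and 3 without KO 2.

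The largest subset, the cells with no pair, gave 20 of 40 members higher and 0 lower with a median of 0.54, against 5.14% of all genes called higher and 3.15% lower. Xaf1, an antagonist of apoptosis inhibitors, passed here, from 18.5 and 24.6 to 34.2 and 34.8 CPM (log2 change 0.72, adjusted p = 0.0255). Without KO 1 the calls were 13. Cycling macrophages gave 18 of 39 higher and 1 lower with a median of 0.56, against 8.6% and 5.36% of all genes. The higher calls were 10 with library sizes taken as total counts and 11 with gates 1.5 times stricter. Isg15 passed in them, from 44.2 and 52.1 to 85.2 and 67.1 CPM (log2 change 0.81, adjusted p = 0.00497), as did Rsad2 and Cmpk2, neighbours on chromosome 12. The fall of Ifi27l2a was not called without WT 1. The Lyve1 and Cd163 cells, down to 19 in KO 1 and added after the data were seen, gave 0 of 35 members higher and 1 lower, with 21 at a negative log2 change, against 0.0671% of all genes in each direction. Before adjustment 1 was higher and 6 were lower at p under 0.05, and DESeq2 called 0 higher and 1 lower. The 1 called was Ifi27l2a, from 2175 and 3228 to 1060 and 1060 CPM. It was not called without KO 1 or without KO 2, and 2 members were lower without WT 1 and 4 without WT 2. The IFIT family had a median log2 change of -1.91 over the 3 members tested there. Ifit1 stood at 70.2 and 30.9 CPM in WT and at 11.3 and 13.6 CPM in KO, from 179, 31, 2 and 8 UMIs, a log2 change of -2.04 that did not pass (adjusted p = 0.239). Rsad2, at 73.7 and 28.9 against 5.64 and 20.4 CPM, did not pass either (log2 change -1.72, adjusted p = 0.573).

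**Figure D3:**
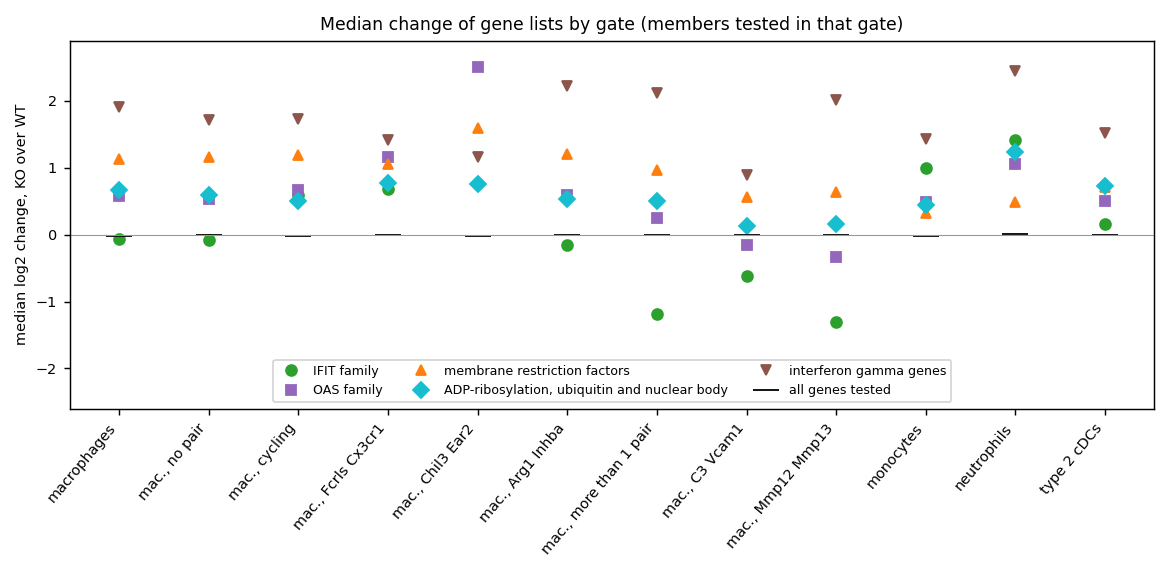
Median log2 change (KO over WT) of 4 groups of members, of the interferon gamma genes and of all genes tested (black bars), in macrophages, their subsets and 3 other cell types. The IFIT family lies at 1.00 in monocytes and at -1.31 in Mmp12 and Mmp13 macrophages, whereas the interferon gamma genes lie above 0 in every gate shown.

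Macrophages were also split by Cxcl9, a chemokine gene induced by interferon gamma, a split added after the data were seen. Cells with Cxcl9 are here those with at least 2 UMIs of it and 4 per 10000. Cells between that limit and no UMI were in neither part. Cells with no Cxcl9 UMI were 90.7% and 79.1% of macrophages in WT and 49.0% and 50.7% in KO. Cells with Cxcl9 were 4.41% and 9.84% in WT and 27.3% and 24.1% in KO. Cells with no Cxcl9 UMI gave 18 of 40 members higher and 0 lower with a median of 0.44, against 7.05% and 6.39% of all genes. Without KO 1 there were 7 and without KO 2 there were 10, and lower calls were 2 without WT 1 and 1 without WT 2. Cells with Cxcl9 gave 8 of 40 higher and 0 lower with a median of 0.23, against 6.6% and 3.87% of all genes, and 1 lower without KO 2. The difference between these splits was not tested. Zbp1 stood at 31.6 and 34.2 against 77.9 and 75.7 CPM in the cells without Cxcl9, and at 113 and 103 against 136 and 135 CPM in those with it. Rsad2 had the largest change among the members called in the latter, from 25.4 and 23.6 to 70.4 and 54.8 CPM (log2 change 1.5, adjusted p = 7.5e-05). The interferon gamma genes gave 21 of 22 higher (median 1.95) without Cxcl9, and 9 of 23 higher and 1 lower (median 0.37) with it. Cxcl9 itself is 1 of the 23, was used for the split and was tested only in the cells that have it, where it was not called, and the other 22 respond to the same interferon as the splitting gene.

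Monocytes, 264, 161, 755 and 453 cells, showed a rise too. Of 40 members 13 rose and 0 fell with a median of 0.52, against 3.6% of all genes called higher and 0.999% lower, and without WT 1 there were 5. Among the IFIT genes 3 of 4 passed. Ifit2 stood at 51.7 and 33.4 CPM in WT and at 107 and 110 CPM in KO, a log2 change of 1.37 (SE 0.17, adjusted p = 3.8e-05). Ifit1 rose from 36.0 and 41.2 to 72.4 and 70.1 CPM, a log2 change of 0.98 (adjusted p = 0.00113), and Isg15 from 415 and 446 to 754 and 706 CPM, a log2 change of 0.84 (adjusted p = 0.00023). In these 3 genes, picked as called by the test, both KO libraries lay above both WT libraries, which adds no support to the calls. Ifitm3, which rose in macrophages, had 3078 and 3806 against 3830 and 4037 CPM in monocytes and did not pass. Whether monocytes and macrophages differ in these changes was not tested.

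Neutrophils were shallow, with medians of 1524 to 1784 UMIs. Of 30 members tested 4 rose and 0 fell, with a median of 1.08, against 0.628% of all genes called higher and 0.257% lower, and 11 rose without WT 1. Zbp1 stood at 87.7 and 24.3 CPM in WT and at 308 and 348 CPM in KO, a log2 change of 2.5 (SE 0.41, adjusted p = 0.00785). Herc6, Ifit1 and Parp14 were the others, with log2 changes of 2.63, 2.62 and 2.02. Isg15, at 1078 and 742 against 1808 and 2582 CPM, did not pass (adjusted p = 0.104).

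Type 2 cDCs, conventional dendritic cells that present antigen mainly to CD4 T cells, gave 5 of 37 members higher and 0 lower (median 0.65, against 1.57% of all genes called higher and 0.4% lower). These were Dtx3l, Oasl2, Ifitm3, Rtp4 and Bst2, and Ifitm3 went from 2394 and 2051 to 4810 and 3372 CPM (log2 change 0.93, adjusted p = 0.0347). Without KO 2 there were 18 calls, without KO 1 there were 2 and without WT 2 there was 1. Migratory dendritic cells gave 5 of 27 higher and 0 lower (median 0.77, against 0.995% and 0.314% of all genes). Rsad2 there had 1.61 and 16.8 CPM in WT and 95.6 and 81.0 CPM in KO, a log2 change of 3.11 (SE 0.49, adjusted p = 0.00809). The WT sums held 621213 and 714063 UMIs in all, so both WT values rest on few Rsad2 UMIs, and they differ from each other. Without KO 1 there were 2 calls, without KO 2 there were 8. Type 1 cDCs, 15, 22, 42 and 20 cells and added after the data were seen, gave 0 of 17 members higher and 0 lower by edgeR, none of them at an unadjusted p under 0.05 and 0 by DESeq2, against 0% and 0.0256% of all genes. Without WT 1, their smallest library, 4 of 19 tested were higher.

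In T cells the summed level of the members was 3362 and 3081 CPM in WT and 3477 and 2945 CPM in KO, and the groups overlapped. By edgeR 0 of 35 members were higher, 4 at an unadjusted p under 0.05, and 1 was lower, against 1.62% and 0.998% of all genes, and the median was 0.13. The member that fell was Isg20, at 103 and 107 against 57.3 and 56.2 CPM (log2 change -0.79, SE 0.13, adjusted p = 0.00558). DESeq2 called 1 higher and 2 lower, and the higher calls were 4 without KO 2 and 2 without WT 2, with 2 lower without either KO library. The interferon gamma genes had a median log2 change of 0.06 in T cells, with 0 of 23 called. The T cell sums also held macrophage RNA: the 10 macrophage markers summed to 892 and 1183 CPM in WT and 2288 and 1475 CPM in KO, against 16150 to 24890 CPM in macrophages. Their make-up differed too: CD8 T cells were 31 of 238 and 102 of 378 T cells in WT. In KO they were 1072 of 1842 and 451 of 932. Regulatory T cells were 104 and 131 in WT and 183 and 141 in KO. Isg20 did not pass in CD4 T cells (log2 change -0.65) or regulatory T cells (-0.012), and edgeR called no member in CD8 T cells. The part of this make-up in the Isg20 value was not tested. Among CD4 T cells without Foxp3, Ifitm1 was the 1 of 13 members called, from 61.7 and 36.2 to 709 and 542 CPM (log2 change 3.75, adjusted p = 2.1e-07, against 0.45% of all genes called higher and 0.03% lower), and 2 were called without KO 2. The CD4 gate was not alike in both groups, as the marker genes Ccr7 and C1qb were called higher in KO (6.84- and 2.33-fold). The part of these differences in the Ifitm1 value was not tested. In CD8 T cells edgeR called 0 of 32 members higher and 0 lower, against 0.33% and 0.0682% of all genes. DESeq2 called 1 higher, and before adjustment edgeR had 1 higher and 0 lower at p under 0.05. In regulatory T cells edgeR called 0 of 23 higher and 0 lower, against 0.329% and 0.149% of all genes. DESeq2 called 0, and before adjustment edgeR had 7 higher and 0 lower at p under 0.05.

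Collagen-positive cells, 133, 136, 45 and 62 in number and mostly without CD45, gave 7 of 34 members higher and 0 lower with a median of 1.09, against 0.86% of all genes called higher and 0.0791% lower. Zbp1 stood at 12.9 and 22.0 CPM in WT and at 178 and 131 CPM in KO, a log2 change of 3.17 (SE 0.27, adjusted p = 0.000747). Bst2 went from 168 and 249 to 627 and 762 CPM, a log2 change of 1.78 (adjusted p = 0.00459). Without KO 1 or KO 2 there was 1 call, and without WT 2 there were 19.

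**Figure D4:**
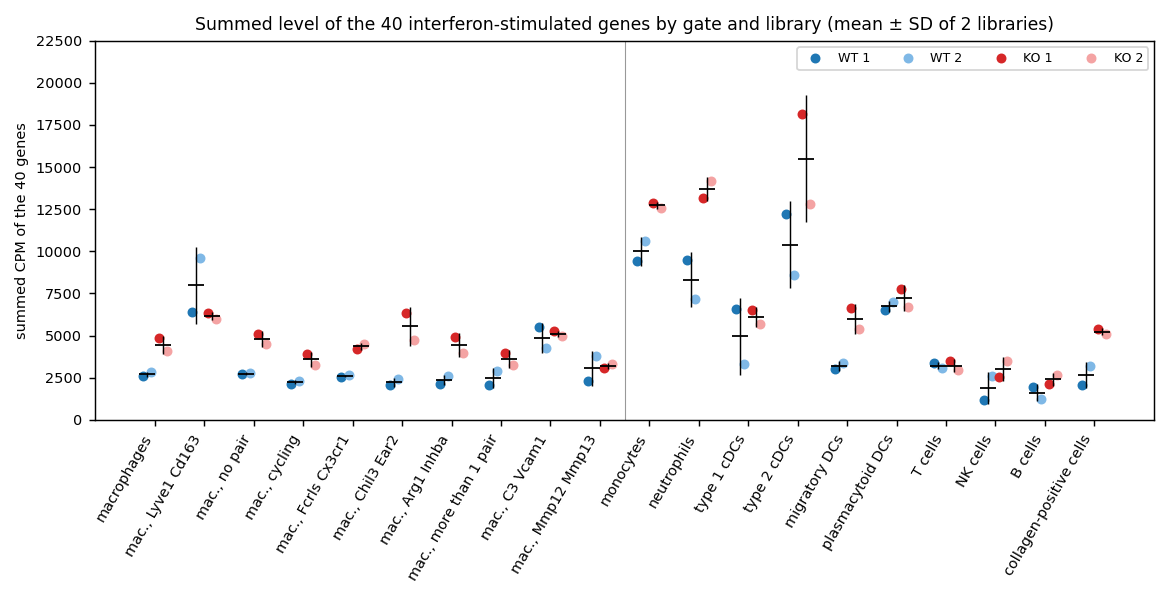
Summed CPM of the 40 members in 10 macrophage gates (left of the line) and 10 other types, with 1 point per library and black bars for the mean ± SD of 2 libraries. Monocytes, neutrophils and type 2 cDCs hold the highest levels, and the WT and KO points overlap in the C3 and Vcam1 and the Mmp12 and Mmp13 macrophages.

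Across types, the summed level of the members was highest in type 2 cDCs (10401 ± 2581 CPM in WT, 15498 ± 3779 in KO, SD, n = 2), neutrophils (8323 ± 1646 and 13680 ± 705) and monocytes (10001 ± 849 and 12731 ± 204). The WT ranges of these 3 overlap, so their order is not fixed beyond the spread. T cells (3221 ± 199 in WT) and macrophages (2698 ± 170) lay far below, and their WT libraries did not overlap. In macrophages most of the sum came from Ifitm2, Ifitm3, Bst2, Ifi27l2a and Ifitm1, the 5 members with the most UMIs. Within WT macrophages the Lyve1 and Cd163 cells held the most, 6376 and 9584 CPM, above the 5492 and 4247 CPM of the C3 and Vcam1 cells.

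To compare cells at 1 depth, each was thinned to 1000 UMIs and the other 35 members were counted. In macrophages 7.16% and 8.39% of WT cells and 14.2% and 13.8% of KO cells had 3 or more of these UMIs, against 68.1%, 76.3%, 82.3% and 85.9% before thinning. The KO libraries lay above both WT libraries by 6.22 percentage points on average. The top 5% of macrophages held 40.1% and 43.9% of the UMIs of these members in WT and 30.4% and 33.2% in KO. The share that sampling of few UMIs alone would give is not known here. These values therefore cannot show that the UMIs were concentrated in few cells, or more so in WT. In Mmp12 and Mmp13 cells the shares were 7.77% and 18.1% in WT and 8.14% and 11.2% in KO, and WT 2 was the highest. No test was made, since with 2 libraries against 2 an exact permutation test cannot go below a p of 0.33.

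**Figure D5:**
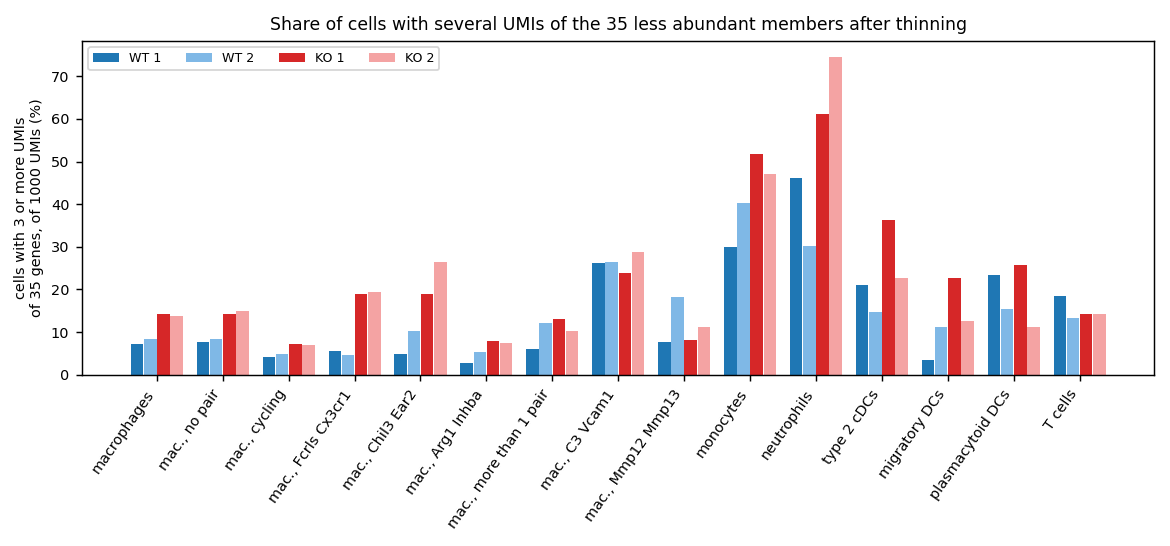
Share of cells (%) with at least 3 UMIs of the 35 less abundant members after each cell was thinned to 1000 UMIs, with 1 bar per library. Macrophages as a whole rise from 7.16% and 8.39% in WT to 14.2% and 13.8% in KO, and the Mmp12 and Mmp13 macrophages show WT 2 as the highest bar.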

How the data were processed

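The deposited counts are whole numbers of UMIs for each gene in each barcode, which the authors made with a 10x Genomics 3' v3.1 kit, Cell Ranger 5.0.1 and mm10, per the labels' protocols and the submitters' processing notes; Seurat 3.15 is named there without a role. The filter on genes was not given in the sources used here, free RNA was not removed, and 3' tags can miscount near-identical copies. Barcodes with at least 1000 UMIs and at most 20% mitochondrial UMIs were kept. Cells were gated on marker UMIs per 10000 (macrophages: at least 4 of 10 markers and 24 UMIs), with limits set after the data were seen. No doublet caller was run, and barcodes that passed the gates of more than 1 lineage were left out. Types with at least 20 cells in every library were summed per library and tested with edgeR 4.0.16 (filterByExpr, TMM, robust quasi-likelihood, genotype only, two-sided, Benjamini-Hochberg over all genes tested in the type, 0.05) in R 4.3.3. The alternatives used limma 3.58.1 and DESeq2 1.42.0. No replicate block was in the main fit. Members, lists and tests were chosen with earlier results of these data known. Members were named with values when past the threshold (up to 15 per macrophage gate and 8 per other type by size of change); others named, such as the IFIT genes, Isg15 and Rsad2, were chosen after their values were seen. Coordinates are GENCODE positions on GRCm38, found for all 40 members, and promoters are from RefSeq. The targeted gene and 1 pathway gene are not reported here. On simulated counts the test recovered 54.5% of genes changed 1.5-fold and 97% of those changed 3-fold in macrophages (12647 genes).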

Additional observations from a re-analysis of the deposited data

Results flagged for a closer look

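The change between KO and WT differed between the 8 macrophage subsets for 14 members, by the F test of the subset by genotype interaction with adjusted p under 0.05. The F values were 13.5 for Bst2, 9.38 for Ifitm3, 7.96 for Ifi27l2a, 6.36 for Xaf1, 5.93 for Herc6, 5.74 for Usp18 and 5.31 for Zbp1. They were 5.30 for Ifitm2, 5.05 for Irf9, 4.90 for Oas3, 4.30 for Isg20, 4.25 for Dhx58, 4.00 for Dtx3l and 3.98 for Sp100. Of these 14 the Mmp12 and Mmp13 cells had the lowest log2 change among the subsets tested for 13. Ifitm2 was the exception, with its highest change there (0.81). How often these cells were lowest over all genes is not given. Without WT 2 the median change of the members in these cells turned from negative to positive. Usp18 had 0.82 in cycling cells, past the test, and -1.21 in Mmp12 and Mmp13 cells, not past it. Isg20 had -2.18 in Mmp12 and Mmp13 cells, past the test, and 0.45 in Fcrls and Cx3cr1 cells, not past it. Without KO 1, 2 of the 40 members passed and without KO 2, 5.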

How the results depend on the processing

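Macrophages kept 0 members lower in all settings except equal subset weights (limma), where 9 were higher and 1 lower and Dhx58 reversed to -0.031 (adjusted p = 0.904). Counts that moved follow as higher calls unless said. DESeq2 gave 2 in migratory DCs, 1 in T cells (2 lower), 1 in CD8 T cells, and 0 lower in Mmp12 and Mmp13 cells, 1 lower in C3 and Vcam1 cells and 0 lower in cycling cells. In C3 and Vcam1 cells 1 was higher and 1 lower with DESeq2 size factors, total counts, cells of at least 3000 UMIs or a mitochondrial maximum of 10%, and 1 higher with second-lineage barcodes kept. The 3000 UMI minimum also gave 2 in migratory DCs, 0 lower in Lyve1 and Cd163 cells and 1 lower in Mmp12 and Mmp13 cells. Total counts gave 10 in cycling cells and 1 lower with more than 1 pair, and moved the calls over all genes from 949 higher and 592 lower to 547 and 1423 in cycling cells, from 862 and 781 to 606 and 1219 without Cxcl9, from 726 and 426 to 470 and 842 with Cxcl9, from 223 and 84 to 141 and 142 in C3 and Vcam1 cells, from 358 and 200 to 266 and 241 with more than 1 pair, from 161 and 99 to 130 and 154 in T cells and from 306 and 85 to 239 and 120 in monocytes. No low-count filter gave 2 in type 1 cDCs, 14 in type 2 cDCs, 8 in migratory DCs, 3 in T cells (2 lower), 2 in CD8 T cells (1 lower), 4 lower in Lyve1 and Cd163 cells, 2 in Mmp12 and Mmp13 cells (7 lower), 3 lower in C3 and Vcam1 cells, 10 in Arg1 and Inhba cells, 8 in Chil3 and Ear2 cells, 7 with more than 1 pair (1 lower) and 14 in cells with Cxcl9 (1 lower). Gates 1.5 times stricter gave 7 in monocytes, 2 in neutrophils, 11 in type 2 cDCs, 0 in C3 and Vcam1 cells, 3 in Arg1 and Inhba cells, 3 in Chil3 and Ear2 cells and 11 in cycling cells. The cause was not tested.

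The labels give both groups replicate numbers 1 and 2. Over genes, the difference between the 2 WT libraries and that between the 2 KO libraries had a correlation of 0.012 in macrophages. With 1 difference per group, this cannot tell whether same-numbered libraries were made together. A replicate block gave 12 in macrophages, 2 in type 1 cDCs, 12 in type 2 cDCs, 11 in migratory DCs, 4 in T cells (3 lower), 13 in collagen-positive cells, 23 in Fcrls and Cx3cr1 cells, 3 in Mmp12 and Mmp13 cells (12 lower), 4 lower in C3 and Vcam1 cells, 3 in Arg1 and Inhba cells and 4 lower in Lyve1 and Cd163 cells.

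Leaving out each library in turn gave 14 to 23 higher in macrophages, 5 to 15 in monocytes, 4 to 11 in neutrophils, 0 to 4 in type 1 cDCs, 1 to 18 in type 2 cDCs, 2 to 8 in migratory DCs, 0 to 4 in T cells (1 to 2 lower), 1 to 19 in collagen-positive cells, 0 to 1 in CD8 T cells (0 to 1 lower), 1 to 2 in CD4 T cells and 0 to 1 in regulatory T cells. Among macrophage subsets it gave 6 to 15 in Fcrls and Cx3cr1 cells, 0 to 4 in Mmp12 and Mmp13 cells (0 to 10 lower), 0 to 5 in C3 and Vcam1 cells (0 to 3 lower), 3 to 18 in Arg1 and Inhba cells, 5 to 10 in Chil3 and Ear2 cells, 16 to 20 in cycling cells (0 to 1 lower), 3 to 17 with more than 1 pair (0 to 6 lower), 13 to 22 with no pair, 7 to 21 without Cxcl9 (0 to 2 lower), 6 to 12 with Cxcl9 (0 to 1 lower), 0 to 4 lower in Lyve1 and Cd163 cells and 2 to 21 members for the interaction. The KO minus WT share of thinned macrophages was 1.76 points at 5 or more UMIs and 15.3 points at 2000 UMIs. Of 1222 log2 changes of named members under other settings, 1112 kept direction and call, 109 lost the call and 1 reversed; of 540 with a library left out, 133 lost it. In simulated counts 22.7% of 1.5-fold changes were recovered in monocytes, which limits what a missing call shows there.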

Other observations

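Types with too few cells for a test gave the following summed member levels. Plasmacytoid dendritic cells, known as the main producers of interferon alpha, held 6493 and 6977 CPM in WT and 7776 and 6702 CPM in KO, so the groups overlapped. NK cells held 1205 and 2575 CPM in WT, from 6 and 20 cells, and 2526 and 3504 CPM in KO, from 179 and 101 cells. B cells held 1979 and 1254 CPM in WT and 2128 and 2663 CPM in KO. Cells that passed no gate, 15.2% and 14.1% of kept cells in WT and 6.68% and 12% in KO, held 1927 and 2193 CPM in WT and 5136 and 4318 CPM in KO.

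Among T cells, Ifitm1 varied between the WT libraries, at 158 CPM in WT 1 and 558 CPM in WT 2, against 728 and 523 CPM in KO.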
